A study of Mus musculus with 4 samples.

Results

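The ErbB family genes examined here are the receptors Egfr, Erbb2, Erbb3 and Erbb4, the ligands Hbegf, Ereg, Btc, Tgfa and Nrg1, and the feedback inhibitor Errfi1. Members were all probe sets whose only gene symbol in the annotation of the array is one of these 10 genes, which gave 20 probe sets of 45037 tested. The 10 genes stand among 17097 genes that the array measured under a single symbol.

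RNA came from whole tumors of 4T1Ch9, a cherry-tagged line of triple-negative breast cancer (TNBC) from the Balb/c background, which formed in wild-type female Balb/c mice aged 6 to 8 weeks after 50000 cells were placed in the mammary fat pad. Once tumors had grown for 10 days, daily dosing followed over 7 days with vehicle (polyethylene glycol and solutol) or with 1 mg/kg of trametinib, an inhibitor of the kinases MEK1 and MEK2 (MEKi). Both MEKi and vehicle have 2 Affymetrix MG-430PM arrays, read in log2 units after RMA, a number that limits the precision. The sources used here leave out whether separate mice stand behind the arrays of 1 group, so the p-values describe only the spread between these arrays. All 4 arrays carry 1 tumor line in an immunocompetent host, and in such bulk RNA fewer cells of a type cannot be told apart from less RNA per cell.

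ErbB receptors are tyrosine kinases at the surface of epithelial and other cells. A ligand, usually cut from the cell surface by a protease of the ADAM family, brings receptors together in pairs that signal through the Ras/MAPK cascade, in which MEK lies directly above ERK, and through PI3K. ERK in turn induces genes of ErbB ligands and of Errfi1, whose product binds the kinase domain of the receptors and inhibits it. Triple-negative tumors are defined by the lack of estrogen and progesterone receptors and of ERBB2 amplification, and many of them carry EGFR at the cell surface.

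Likeness between arrays went against the labels. Over all tested probe sets, which are no independent replicates, MEKi 1 correlated best with vehicle 2 (Pearson's r 0.992) and MEKi 2 with vehicle 1 (0.978), whereas r was 0.927 within MEKi and 0.959 within vehicle. Over the 10 ErbB genes the root mean square difference was also smallest between MEKi 1 and vehicle 2, at 0.64 log2 units, and it was largest between MEKi 1 and vehicle 1, at 1.45. Within MEKi it came to 1.27 and within vehicle to 0.88. More than 2 log2 units separated MEKi 1 from MEKi 2 at 2327 probe sets, and from vehicle 2 at 25. Whether labels were exchanged was not tested, and another assignment of the arrays would alter every fold change by label given here. No label was changed, and every array is called by its label.

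Of the 10 genes, 6 were measured above the floor of the arrays throughout, namely Egfr, Erbb2, Erbb3, Hbegf, Tgfa and Errfi1. The floor is taken as 1 log2 unit above the 25th percentile of an array, and this percentile lay between 3.85 and 3.88. Erbb4, Ereg and Btc were under the floor in all arrays, as were 32.3% of all genes, and Nrg1 passed it only in MEKi 2. Values under the floor have no order. A gene with several probe sets is represented by its brightest, judged by the mean of all arrays.

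By label, MEKi and vehicle did not separate these genes. With limma, 0 of the 20 probe sets were called when a call required a fold change over 1.5, p under 0.05 and a Benjamini-Hochberg adjusted p under 0.1, against 0% of all 45037 probe sets, where no adjusted p fell below 1. Without adjustment, 0 of 20 members had p under 0.05, against 0.901% of all probe sets. A single member probe set, of Tgfa, had both arrays labelled MEKi below both labelled vehicle, as had 9.86% of all probe sets. That of Erbb4 read nominally the other way, as did 12.1% of all probe sets, but under the floor, where such an order has no meaning. Among the 10 genes, 7 had a log2 fold change below 0, against 47.8% of all genes, and the median was −0.04 against 0.01. An exact permutation test of 2 against 2 arrays cannot give a two-sided p under 0.333.

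**Figure D1:**
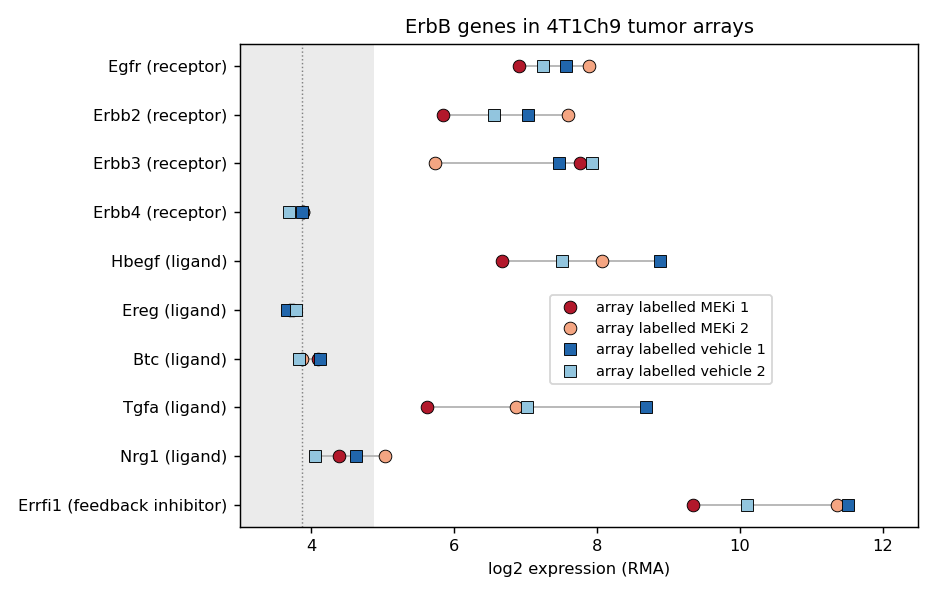
Log2 expression (RMA, horizontal axis) of the 10 ErbB genes with a circle for each array labelled MEKi, a square for each labelled vehicle and a grey line for the span. The shaded range is under the floor and the dotted line is the mean 25th percentile. Errfi1 runs from 9.35 in MEKi 1 to 11.51 in vehicle 1, and Erbb4, Ereg and Btc stay under the floor.

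Egfr and Erbb2 followed the same order of arrays, lowest in MEKi 1 and highest in MEKi 2, while Erbb3 departed from them. Egfr, the receptor of EGF, TGFα and HB-EGF among other ligands, had log2 expression of 6.90 and 7.89 in MEKi 1 and 2, against 7.56 and 7.25 in vehicle 1 and 2. The arrays labelled MEKi thus lay on either side of those labelled vehicle, and the log2 fold change by label was −0.0050 (SE 0.41, 95% interval −1.18 to 1.17, limma adjusted p = 1). Of the 6 probe sets of Egfr, 4 passed the floor in at least 1 array, and all 4 were highest in MEKi 2. The next brightest read 5.61, 6.67, 6.30 and 5.81 in the order MEKi 1, MEKi 2, vehicle 1 and vehicle 2, with the same ranking of the arrays.

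Erbb2, which encodes the receptor HER2, a dimer partner without a known ligand of its own, read 5.85 and 7.60 in MEKi 1 and 2, against 7.04 and 6.56 in vehicle 1 and 2. MEKi 1 was 1.19 below vehicle 1 and MEKi 2 was 0.56 above it, so the groups overlapped and the fold change by label was −0.08 (SE 0.68, 95% interval −2.02 to 1.87, limma adjusted p = 1). The span over the 4 arrays was 1.75, against a median span of 0.55 over all genes. Without MEKi 1 the fold change by label was 0.80, and without MEKi 2 it was −0.95. Of the receptors that define TNBC besides HER2, the estrogen receptor gene Esr1 stayed under the floor in all arrays, at 3.48 to 4.32. The progesterone receptor gene Pgr read 5.68 and 4.07 in MEKi 1 and 2, against 6.65 and 6.12 in vehicle 1 and 2. Pgr was under the floor in MEKi 2 alone. Both arrays labelled MEKi were below both labelled vehicle, as for 10.2% of all genes. The log2 fold change by label was −1.51 (95% interval −3.34 to 0.31).

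Erbb3, which encodes a neuregulin receptor with an impaired kinase that recruits PI3K, was far lower in MEKi 2 than elsewhere. It read 7.77 and 5.74 in MEKi 1 and 2, against 7.47 and 7.93 in vehicle 1 and 2. The lone low array set the difference by label, with a log2 fold change of −0.95 (SE 0.78, 95% interval −3.17 to 1.27, limma adjusted p = 1) that came to 0.06 without MEKi 2 and −1.96 without MEKi 1. The other probe set of Erbb3 was under the floor in all arrays, between 3.34 and 3.62. Erbb4, which encodes the other neuregulin receptor, read 3.89 in both arrays labelled MEKi and 3.87 and 3.69 in vehicle 1 and 2, so its expression was not detectable above the floor of these arrays.

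Stretches before the annotated starts of Egfr and Erbb2 are shown because these receptor genes ranked the arrays alike. RefSeq promoter windows (GRCm38.p6, 250 bases before to 50 after a start) were at hand for 6 of the 10 genes, Errfi1 with 2 of the 7 windows. They were searched on both strands for 5 motifs: the AP-1 site TGANTCA, the cAMP response element TGACGTCA, the ETS core CGGAAG, the GC box GGGCGG and the CArG box. Capitals mark matches, and in the Egfr stretch both read on the opposite strand. The Egfr stretch is the 250 bases of chr11:16751953-16752202 and the Erbb2 stretch those of chr11:98412234-98412483, both on the plus strand.
Egfr: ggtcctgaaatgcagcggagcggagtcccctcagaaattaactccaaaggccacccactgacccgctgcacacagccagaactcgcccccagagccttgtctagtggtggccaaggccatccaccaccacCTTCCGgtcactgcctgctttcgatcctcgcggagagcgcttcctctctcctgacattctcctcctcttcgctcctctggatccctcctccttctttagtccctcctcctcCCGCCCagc
Erbb2: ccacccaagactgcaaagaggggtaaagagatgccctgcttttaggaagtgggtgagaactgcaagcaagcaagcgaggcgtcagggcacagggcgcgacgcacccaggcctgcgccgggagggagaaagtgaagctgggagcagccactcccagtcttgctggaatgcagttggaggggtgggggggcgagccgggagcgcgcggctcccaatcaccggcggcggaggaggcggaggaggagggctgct
In the Egfr window the ETS core lay at positions −120 to −115 from the start and a GC box at −9 to −4. The ETS core occurs in 16.9% and the GC box in 35.7% of the 32851 windows of all genes. The Erbb2 window held none of these letters, and no member window held an AP-1 site or a CArG box, which occur in 7.81% and 1.63% of all windows. A match is a description of the sequence only.

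Among the ligands, Hbegf and Tgfa were expressed above the floor and both were lowest in MEKi 1 and highest in vehicle 1. Hbegf, which encodes heparin-binding EGF-like growth factor, read 6.67 and 8.07 in MEKi 1 and 2, against 8.88 and 7.51 in vehicle 1 and 2. MEKi 2 lay between the arrays labelled vehicle, so the groups overlapped. The log2 fold change by label was −0.83 (SE 0.74, 95% interval −2.93 to 1.28, limma adjusted p = 1), and with each array left out it stayed below 0, between −1.53 and −0.12. A further probe set of Hbegf ranked the arrays alike, at 4.66, 6.66, 7.74 and 5.71 in the same sequence of arrays. Its reading in MEKi 1 was under the floor, so its difference of −3.08 from vehicle 1 has no exact size.

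Tgfa, which encodes TGFα, a ligand of EGFR, had the largest difference by label among the 10 genes when each was read by its brightest probe set, but not when all probe sets of a gene were averaged, where it was −0.37 and Hbegf was −0.95. Its brightest probe set read 5.62 and 6.86 in MEKi 1 and 2, against 8.69 and 7.02 in vehicle 1 and 2. Both arrays labelled MEKi were lower than both labelled vehicle, as for 10.2% of all genes, but MEKi 2 and vehicle 2 differed by only 0.16. The log2 fold change by label was −1.62 (SE 0.78, 95% interval −3.83 to 0.60, limma adjusted p = 1), and it was −2.45 without vehicle 2 and −0.78 without vehicle 1. The other probe sets of Tgfa did not show this order. They read 4.24 to 5.11 and 3.71 to 4.14, at or under the floor except in MEKi 2 for the brighter of them, and their log2 fold changes were 0.34 and 0.17. The GC box was found in the Tgfa promoter window at positions −126 to −121 and −15 to −10. The start of this window lies 184 bases inside the gene, and only its first 66 bases precede the outermost annotated start. Both matches lie after that outermost start.

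Nrg1, the neuregulin gene whose products bind ErbB3 and ErbB4, read 4.39 and 5.03 in MEKi 1 and 2, against 4.62 and 4.05 in vehicle 1 and 2. These values span the floor, and the log2 fold change of 0.37 (SE 0.35, 95% interval −0.62 to 1.37, limma adjusted p = 1) came to 0.058 without MEKi 2 and 0.69 without MEKi 1. Ereg, which encodes epiregulin, read 3.74 and 3.70 in MEKi 1 and 2, against 3.66 and 3.78 in vehicle 1 and 2. Btc, which encodes betacellulin, read 4.09 and 3.87 in MEKi 1 and 2, against 4.12 and 3.83 in vehicle 1 and 2, with its brighter probe set and 3.44 to 3.86 with the other. Neither of these EGFR ligands was detectable above the floor in any of the 4 arrays.

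**Figure D2:**
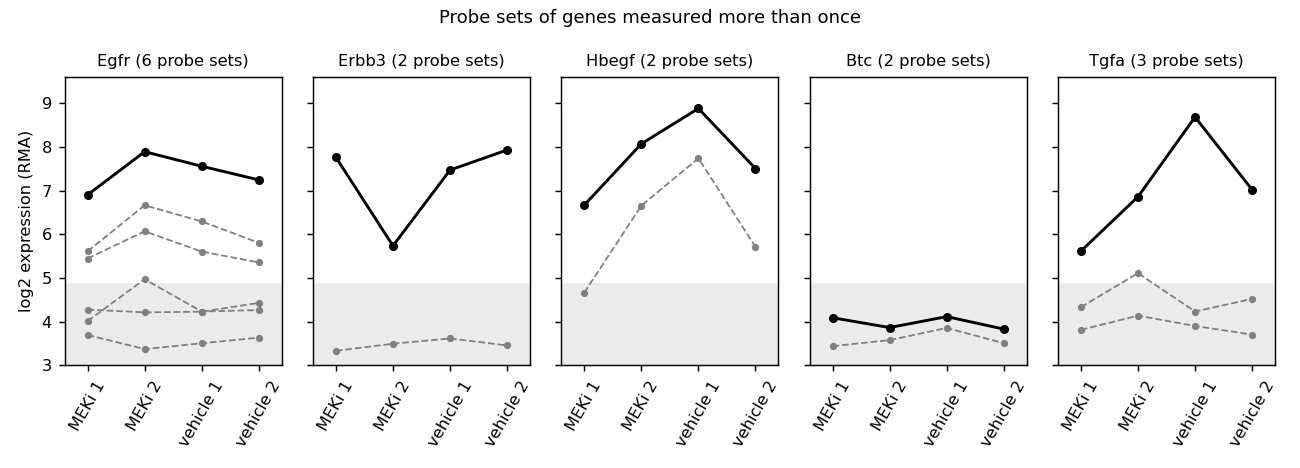
Log2 expression (RMA, vertical axis) of every probe set of the 5 ErbB genes that have several, in each array (horizontal axis). The solid line is the brightest probe set, dashed lines are the others, lines only join readings of 1 probe set, and the shaded range is under the floor. The 2 probe sets of Hbegf run in parallel, while those of Tgfa do not.

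Errfi1, also known as Mig-6, the inhibitor that ERK activity induces, ranked the arrays as Hbegf did. It read 9.35 and 11.36 in MEKi 1 and 2, against 11.51 and 10.10 in vehicle 1 and 2. MEKi 1 was 2.17 below vehicle 1 and 0.75 below vehicle 2, whereas MEKi 2 was 0.16 below vehicle 1 and 1.26 above vehicle 2. The arrays labelled MEKi therefore enclosed 1 of those labelled vehicle, and the log2 fold change by label was −0.45 (SE 0.91, 95% interval −3.06 to 2.16, limma adjusted p = 1). It was −1.46 without MEKi 2, 0.55 without MEKi 1 and 0.26 without vehicle 1, so its sign rests on single arrays.

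The start regions of Errfi1 are shown because its level spanned 2.17 log2 units and it has 2 annotated starts. The 250 bases before the outer start are chr4:150853546-150853795, and a stretch of 28 bases around a match to the cAMP response element, at positions −51 to −44 from the inner start, is chr4:150855009-150855036, both on the plus strand.
Errfi1 outer start: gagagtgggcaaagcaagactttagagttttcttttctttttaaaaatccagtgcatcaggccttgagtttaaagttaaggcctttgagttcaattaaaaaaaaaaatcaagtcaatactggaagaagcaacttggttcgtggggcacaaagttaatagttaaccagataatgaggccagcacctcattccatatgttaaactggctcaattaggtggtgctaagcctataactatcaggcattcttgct
Errfi1 inner start: ctgcgggcgtTGACGTCAcgttgtcgct
The capitals mark the cAMP response element, which occurs in 1.79% of all windows. The outer window held none of the 5 motifs and had a GC content of 42.0%, against 66.7% in the inner one. The inner window also held 3 matches to the GC box, of which a pair overlapped.

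**Figure D3:**
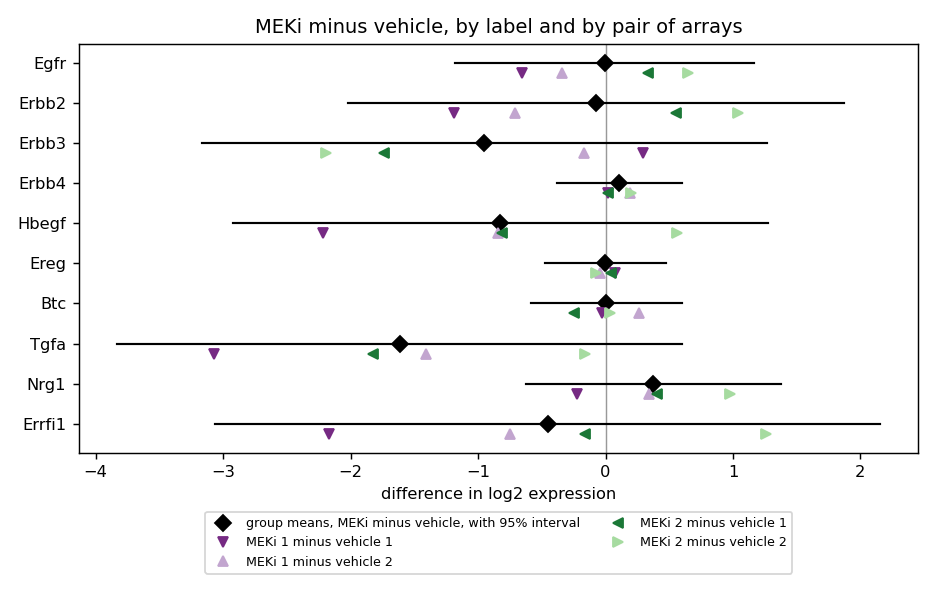
Difference in log2 expression between MEKi and vehicle (horizontal axis) for the 10 ErbB genes. Diamonds are differences of group means by label with their 95% intervals from limma, and triangles are the 4 differences between single arrays. All 10 intervals include 0, and only the Tgfa triangles all lie below 0 among the genes above the floor.

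The array labelled MEKi 1 was the lowest of the 4 for 5 of the 6 genes above the floor, with Erbb3 as the exception, against 34.2% of 9982 genes measured above the floor in all arrays. All 6 were lower in MEKi 1 than in vehicle 2, the array it most resembled, by 0.17 for Erbb3 to 1.41 for Tgfa, where 57.8% of those genes were lower. In the other label-crossing pair, MEKi 2 was lower than vehicle 1 for Erbb3, Hbegf, Tgfa and Errfi1, and higher for Egfr and Erbb2. Of those 9982 genes, 43.1% were lower in MEKi 2 than in vehicle 1. These comparisons share arrays and are a description of 4 tumor samples.

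Markers of several cell types differed between the same arrays. The median of 14 tumor epithelial markers, of which Ovol1 alone was under the floor in all arrays, was 7.39 and 6.46 in MEKi 1 and 2, against 8.49 and 8.0 in vehicle 1 and 2. By label, all 14 had a log2 fold change below 0, against 47.8% of all genes. The same held for all 11 macrophage, 10 T cell, 8 endothelial, 5 normal mammary luminal, 4 adipocyte and 3 Schwann cell markers. Most neutrophil (7 of 7), B cell (7 of 10) and skeletal muscle (5 of 7) markers were instead above 0. For 7 of the 14 epithelial and 5 of the 9 fibroblast markers, both arrays labelled MEKi were below both labelled vehicle, against 10.2% of all genes. The epithelial adhesion genes Epcam and Cdh1 were lowest in MEKi 2 and ranked the arrays as Erbb3 did, with Epcam at 9.06 and 6.54 in MEKi 1 and 2, against 8.79 and 9.23 in vehicle 1 and 2. The keratin genes Krt8 and Krt18 ranked the arrays as Hbegf and Errfi1 did, with Krt8 at 10.54, 12.11, 12.92 and 11.75. The median of 11 macrophage markers, all above the floor, had that order too, at 9.56, 10.41, 10.82 and 10.07. The part of these cell types in the ErbB values was not tested.

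The median of 10 B cell markers was 9.73 and 4.18 in MEKi 1 and 2, against 4.17 and 9.50 in vehicle 1 and 2. That of 4 adipocyte markers was 8.68, 5.52, 10.25 and 9.90. All 4 were lower in both arrays labelled MEKi than in both labelled vehicle, against 10.2% of all genes. The median of 7 neutrophil markers was 7.46, 6.66, 4.50 and 5.32. Of the 7, 6 were higher in both arrays labelled MEKi than in both labelled vehicle, against 1875 of all 17097 genes. S100a8 and S100a9, neutrophil calcium-binding protein genes, were highest in MEKi 2, with S100a8 at 9.99, 11.10, 6.17 and 7.70, whereas Camp and Ngp, granule protein genes, were highest in MEKi 1. Their part in the Tgfa values was not tested. The medians of 10 T cell and 5 lymph node stroma markers were also high in MEKi 1 and vehicle 2 alone, at 9.88 to 9.91 and 11.28 to 11.53, against 5.24 to 6.26 and 3.73 to 3.82 in the others. MEKi 1 and vehicle 2 were also the pair of arrays with r 0.992. Both read below the other arrays for Egfr, Erbb2, Hbegf and Errfi1, but not for Erbb3 or Tgfa. The part of lymphoid cells in the ErbB values and in the likeness of the arrays was not tested. Medians over the arrays ran from 8.49 to 10.09 for 9 fibroblast, 7.95 to 8.54 for 8 endothelial and 5.35 to 6.45 for 5 normal mammary luminal markers. Those of 7 skeletal muscle, 8 keratinocyte and 3 Schwann cell markers lay under the floor, and that of 9 reference genes ran from 13.15 to 13.31.

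With the epithelial median of its own array subtracted, Erbb3 was 0.38 and −0.72 in MEKi 1 and 2, against −1.01 and −0.07 in vehicle 1 and 2. The epithelial median was itself lowest in MEKi 2, so its subtraction raises every gene there against the other arrays. No conclusion is therefore drawn from the place of MEKi 2 on this scale. Tgfa was −1.77, 0.40, 0.20 and −0.98 on this scale, with MEKi 2 the highest array. The groups by label overlapped, and the log2 fold change of Tgfa was −0.30. Errfi1 was 1.96, 4.89, 3.03 and 2.09, and Egfr −0.48, 1.43, −0.93 and −0.75. These are differences from a marker median. The subtraction shifts all genes of an array alike and brought their median log2 fold change by label from 0.01 to 1.33. Tgfa, at −1.62 before and −0.30 after, moved with that median, and its place below it could not change. The part of epithelial cells in these values was not tested.

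**Figure D4:**
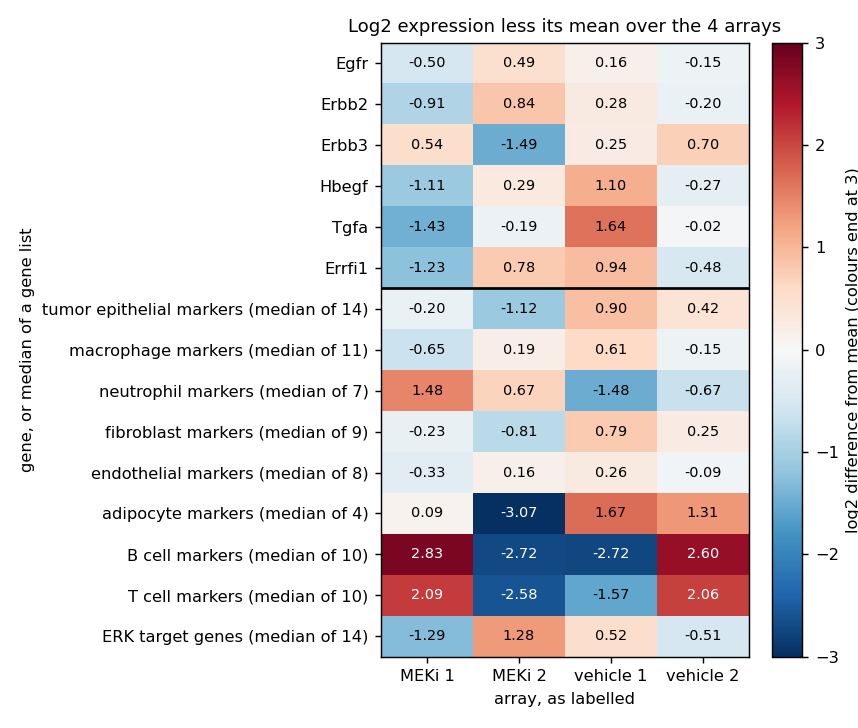
Log2 expression less its mean over the 4 arrays for the 6 ErbB genes above the floor (upper rows) and for the median of 9 gene lists (lower rows), by array as labelled. Colour and printed number give the difference in log2 units. Erbb3 is at −1.49 in MEKi 2, where the epithelial markers are at −1.12. Adipocyte, B cell, T cell and fibroblast markers are also below 0 there, at −3.07, −2.72, −2.58 and −0.81. Macrophage, neutrophil and endothelial markers and ERK target genes are above 0 there. Errfi1 is at −1.23 in MEKi 1, where ERK target genes are at −1.29, and at 0.78 in MEKi 2, where they are at 1.28.

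ERK target genes were the list closest in purpose to Errfi1. The median of 14 such genes was 8.24 and 10.82 in MEKi 1 and 2, against 10.06 and 9.03 in vehicle 1 and 2. In MEKi 1, 14 of 14 were lower than in vehicle 1, and in MEKi 2, 12 of 14 were higher than in vehicle 1, where Errfi1 was 0.16 lower. Of 9982 genes above the floor in all arrays, 51.8% were lower in MEKi 1 and 43.1% in MEKi 2 than in vehicle 1. In MEKi 1, 2 of the 14 were higher than in vehicle 2, where 57.8% of those genes were lower. In MEKi 2, 13 of the 14 were higher than in vehicle 2, against 53.3% of those genes. By label, limma called 0 of the 14. Spry1, which encodes an inhibitor of receptor signaling, had the largest span, with 7.89 and 11.68 in MEKi 1 and 2, against 10.13 and 8.41 in vehicle 1 and 2. Fosl1, which encodes a subunit of AP-1, read 4.89, 8.08, 8.23 and 6.56 and ranked the arrays as Errfi1 did. Most of the 14, Spry1 among them, instead ranked the arrays as Egfr and Erbb2 did. Etv4, which encodes an ETS factor, had the smallest span, from 4.13 to 5.0, and passed the floor only in MEKi 2.

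The remaining genes of ErbB signaling likewise gave no call by label. Of 5 other ligand genes measured, 0 passed, and 4 were under the floor in all arrays, namely Epgn, Nrg2, Nrg3 and Nrg4. Egf read 4.99 and 4.06 in MEKi 1 and 2, against 3.74 and 4.92 in vehicle 1 and 2, above the floor only in MEKi 1 and vehicle 2. Areg was not used here. Among 8 genes for ligand-shedding proteases and their iRhom partners, 0 passed, 6 had a log2 fold change below 0 and the median was −0.34, against 0.01 over all genes. Adam17, which encodes the main protease that releases TGFα and HB-EGF, read 10.17 and 10.40 in MEKi 1 and 2, against 10.17 and 10.18 in vehicle 1 and 2, and had the smallest span of the 8. Rhbdf1, an iRhom gene, had the largest, with 7.94, 9.97, 9.74 and 8.73, and Adam12 followed with 7.40, 6.10, 7.15 and 7.30.

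Of 24 adaptor and effector genes, 0 passed, with 12 higher and 12 lower by label and a median of −0.01. The adaptor genes Nck2 and Shc1 had the largest spans, 1.92 and 1.29, and both were lowest in MEKi 1 and highest in MEKi 2, as Egfr and Erbb2 were. Crkl, another adaptor gene, had the smallest, 0.16. Of 16 other negative regulators, 0 passed, with 11 higher and 5 lower by label and a median of 0.07. Spry2, which encodes an inhibitor of receptor signaling, read 6.27 and 9.45 in MEKi 1 and 2, against 8.06 and 6.70 in vehicle 1 and 2. Sh3kbp1, which encodes an adaptor of receptor endocytosis, read 10.66, 7.67, 8.70 and 10.63. Erbin, whose product binds HER2, spanned 0.25, the least of the 16.

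The genes nearest in pattern to each wide-ranging member were sought by the root mean square difference of centred log2 values over the 4 arrays, among 10613 genes with a mean above the array median. For Errfi1 these were Fzd7, Ehd2 and Camk1, each at 0.03, and 107 genes lay within 0.2. For Hbegf they were Cysltr1, Col7a1 and Upp1, at 0.06 to 0.09, and 44 genes lay within 0.2. Tgfa had the fewest near genes of the 5 members, Bpifb1, Folr2 and Trem2 at 0.14 to 0.19, and only these 3 within 0.2. Erbb2 was nearest to Tnfsf9, Skp2 and Dact2, at 0.05 to 0.06, with 204 genes within 0.2, and Erbb3 was nearest to Gpc6, Ehhadh and Klrg1, at 0.02 to 0.10, with 38. With 4 arrays, many genes fall close to any given pattern.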

How the data were processed

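Total RNA of 4 tumor samples, 2 labelled MEKi and 2 labelled vehicle, was measured on Affymetrix MG-430PM arrays. The authors deposited log2 expression values, quantile normalized over the 4 arrays by RMA (AFFY package, R). Such values compress differences near the floor. Versions, filters and pooling are not given in the sources used here. Of 45141 probe sets, 104 controls were left out. The platform annotation gave 28898 a single symbol, 551 several, which were not named, and 15588 none. All 20 member probe sets matched RefSeq by Entrez identifier.

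Probe sets entered a two-sided test in limma 3.58.1 (lmFit and eBayes, R 4.3.3) with Benjamini-Hochberg adjustment over 45037 probe sets. The call thresholds are those of the paper's results, and an adjusted p under 0.05 was an alternative, as were an intensity trend, no moderation, leaving out the dimmest 0.25 of probe sets, centring on reference genes or on epithelial markers, leaving out each array, a block for the replicate number, and other treatments of probe sets. Fits were tested on simulated data, with recovery required only at a spread below that within labels of the ErbB genes above the floor. That test does not show which changes would be called at the spread of these arrays.

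The members and the 23 gene lists were chosen with earlier results of these data known. Named genes were the 10 members, the other ligands and hormone receptors, of each other list, where none was called, the 2 genes with the largest span and the 1 with the smallest, and the 3 genes nearest in pattern to each member spanning over 1 log2 unit. Marker and reference lists are given by counts and medians instead, and the marker genes named were chosen after their values were seen. Sequences were read and figures drawn with Python 3.11.15, pandas 2.3.3 and matplotlib 3.10.9.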

Additional observations from a re-analysis of the deposited data

How the results depend on the processing

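No ErbB probe set was called by limma in the fit by label or under any alternative. Over all probe sets the count was 0, with 406 at an unadjusted p under 0.05 (683 with an intensity trend and 1189 without moderation of variances), except that centring on tumor epithelial markers gave 18 calls, none of them an ErbB probe set. With that centring 7667 probe sets, 4 of the 20 ErbB probe sets among them, had an unadjusted p under 0.05. That centring brought the median log2 fold change of all genes to 1.33 and that of the ErbB genes to 1.28. It turned the log2 fold changes of Egfr to 1.31, Erbb2 to 1.24, Erbb3 to 0.37, Hbegf to 0.49, Ereg to 1.32 and Errfi1 to 0.87, while Tgfa came to −0.30. It shifts every log2 fold change alike, so the place of a gene against the median of all genes cannot change. Centring on reference genes turned Btc to −0.093, and averaging the probe sets of each gene turned Btc to −0.084 and Egfr to 0.080 and brought Tgfa from −1.62 to −0.37 and Erbb3 from −0.95 to −0.54. With each array left out in turn, the log2 fold change ran from −0.50 to 0.49 for Egfr, −0.95 to 0.80 for Erbb2, −1.96 to 0.063 for Erbb3, −0.060 to 0.059 for Ereg, −0.14 to 0.15 for Btc and −1.46 to 0.55 for Errfi1, and the median of the 10 genes from −0.24 to 0.15. The sign held for Hbegf (−1.53 to −0.12), Tgfa (−2.45 to −0.78), Nrg1 (0.058 without MEKi 2 to 0.69 without MEKi 1) and Erbb4 (0.019 without vehicle 2 to 0.20 without vehicle 1). Where an array was left out, the lone array of its group is assumed to vary like the other group.

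Arrays with the same replicate number did not deviate together, as r was −0.76 between the deviations of MEKi 1 and vehicle 1, and 0.76 between those of MEKi 1 and vehicle 2. With 2 arrays a group these r values mirror each other and restate the likeness of the arrays. They cannot show whether the replicate numbers mark a pairing or a batch. With the replicate block, 0 probe sets and 0 ErbB probe sets were called (267 at an unadjusted p under 0.05) and no call changed. With the crossed pairing, which was chosen after seeing the data, 0 and 0 were called. There 1447 probe sets and 3 of the 20 ErbB probe sets had an unadjusted p under 0.05. A pairing picked from the values narrows their spread, so no conclusion is drawn from these counts. Signal over the floor limits what can be said of Erbb4, Ereg, Btc and Nrg1.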
